A study of Homo sapiens with 6 samples.

Results

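The aminoacyl-tRNA synthetases are the enzymes that attach each amino acid to its tRNA, and their 35 genes listed here were followed by symbol through the gene identifiers of the deposited counts. Of these, 17 encode cytosolic enzymes, 16 encode mitochondrial enzymes, whose symbols end in 2, and GARS1 and KARS1 each supply both compartments. The 35 were matched among the 78932 identifiers in the files, and all 35 were among the 19086 genes that passed the filter on low counts.

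RNA was sequenced from KARPAS-45, an established human line from T-cell acute lymphoblastic leukaemia with a KMT2A-FOXO4 fusion. The control group of 3 libraries is labelled wild type and untreated, and the sources used here do not say whether those cells received an empty vector or went through a sort. The MEF2C-OE group of 3 libraries came from the same line after lentiviral delivery of an mCherry-linked cassette in which the EF1A promoter drives the transcription factor MEF2C, with sorting of mCherry-positive cells 120 hours after transduction. Both groups are labelled as bone marrow and leukaemic blasts, and the replicates in both are labelled technical, so that p-values measure only the spread between libraries. Between 48218497 and 56890745 reads per library were assigned to genes. MEF2C itself, the overexpressed gene, had 10, 1 and 0 reads in the control libraries and 40, 29 and 41 reads in the MEF2C-OE libraries, under 1 CPM in each (log2 fold change 3.28, SE 0.60, edgeR adjusted p = 1.5e-05). The counts do not separate vector reads from those of the endogenous gene. The 13 T-lineage markers summed to 5039.8 to 5102 CPM (counts scaled to library size) in the control libraries and 4244 to 4403 CPM in the MEF2C-OE libraries. The 7 B-lineage, 8 myeloid, 6 erythroid and megakaryocyte and 7 epithelial and kidney markers summed to at most 14.9, 6.19, 2.20 and 1.74 CPM in any library. MS4A1, ELANE, CD33, HBB, PF4, EPCAM, KRT19 and PAX2 had 0 reads in every library.

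Synthetases fall into class I and class II, families with unrelated catalytic folds, and each recognises its own tRNAs. In the cytosol several of them sit in the multisynthetase complex around scaffold proteins, and their products pass to the elongation factor eEF1A and the ribosome. Mitochondria have their own set, encoded in the nucleus and imported, for the proteins of the mitochondrial genome. When charged tRNA runs low, the kinase GCN2 slows initiation while the translation of ATF4 rises, and ATF4 with C/EBP partners then raises transcription of amino acid transporters, amino acid synthesis enzymes and many cytosolic synthetases.

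The 35 genes moved in both directions. In the MEF2C-OE libraries 11 members rose, 12 fell and 12 did not pass the test (edgeR quasi-likelihood test, Benjamini-Hochberg adjusted p under 0.05 over the 19086 genes), in a comparison that called 41.0% of all genes tested, 20.8% higher and 20.2% lower. The 11 that rose were all cytosolic or dual, where 11 of 19 rose, 5 fell and 3 did not pass, with a median log2 fold change of 0.15. No mitochondrial member rose, 7 of 16 fell and 9 did not pass, with a median of -0.12, against -0.011 over all genes tested. Abundant genes were called more often than the rest: among the 6043 genes at least as abundant as the lowest cytosolic member, 39.7% rose and 28.6% fell. The 5 of 19 cytosolic and dual genes that fell are close to that share and are not a result about the group. With a trend on GC content and transcript length removed from each library, 4 mitochondrial genes fell and 1 rose. In that fit 18.7% of all genes tested fell and 19.4% rose. The 4 of 16 that fell are near that share and are not a result about the group. Summed over the 19 genes, the cytosolic and dual set reached 3830.4 to 3909.7 CPM in control cells and 4564 to 4630.3 CPM in MEF2C-OE cells. The 16 mitochondrial genes summed to 477 to 479 CPM and 437 to 441 CPM, so the 2 sums went opposite ways. In RNA extracted from many cells together, fewer cells with a transcript and less of it per cell cannot be told apart.

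Per kilobase of exon, the cytosolic transcripts were the more abundant set. In the control libraries the median level was 30.9 RPKM (CPM divided by exon length in kilobases) for the 19 cytosolic and dual genes and 7.78 RPKM for the 16 mitochondrial genes. IARS1, which charges isoleucine, was highest at 105 ± 2.36 RPKM (SD, n = 3), followed by AARS1, the alanine enzyme, at 84.5 ± 0.896 RPKM. NARS1 and GARS1, for asparagine and glycine, came next at 58.3 ± 1.31 and 56.98 ± 0.882 RPKM, a pair that did not differ beyond their spread. CARS1, the cysteine enzyme, was the lowest cytosolic gene at 8.44 ± 0.0894 RPKM. IARS2 led the mitochondrial genes at 17.96 ± 0.0773 RPKM, while SARS2 and VARS2 stood at 1.34 ± 0.180 and 0.203 ± 0.0303 RPKM. In the GENCODE 29 annotation 46.2% of SARS2 exon bases and 22% of VARS2 exon bases are shared with another gene on the same strand, where a counter can set reads aside as ambiguous, so the levels of SARS2 and VARS2 are uncertain. The sources used here do not say whether the counting used strand. Other overlaps on opposite strands include MARS1 with ARHGAP9 (7.38% of MARS1 exon bases) and with DDIT3 (5.05%), and EARS2 with UBFD1 (6.46%). HARS1 and HARS2 share 437 bases, also on opposite strands. HARS2 shares 4.07% of its exon bases with ZMAT2 on the same strand.

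**Figure D1:**
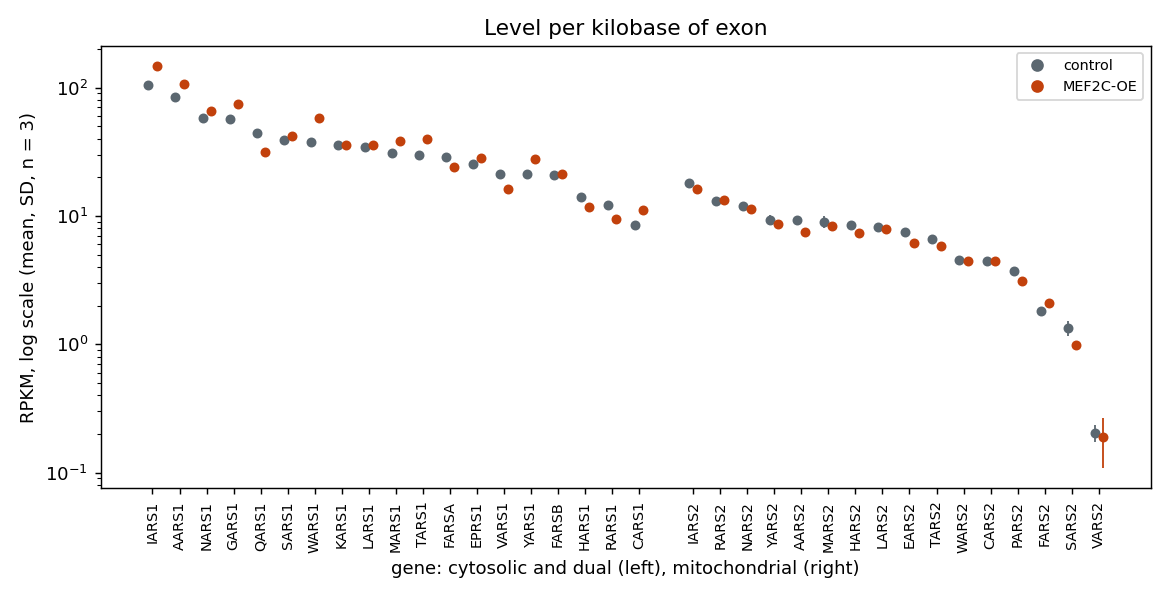
Level of each synthetase gene in RPKM on a log axis, as the mean and SD of 3 libraries, for control (grey) and MEF2C-OE (orange) cells, with cytosolic and dual genes on the left and mitochondrial genes on the right. IARS1 lies at the top of the first set with 105 RPKM in control cells and VARS2 at the bottom of the second with 0.203 RPKM.

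All 11 genes that rose are cytosolic or dual synthetases listed as textbook targets of the amino acid response. Of 13 such genes 11 rose, VARS1 fell and LARS1 did not pass, with a median log2 fold change of 0.35. Among the 6 other cytosolic and dual genes none rose, 4 fell and 2 did not pass, with a median of -0.26. Of all genes tested 20.8% rose and 20.2% fell. Of those at least as abundant as the lowest cytosolic member, 39.7% rose and 28.6% fell. The members and lists were chosen with earlier results of these data known, so the split is a description and not a test. The control and MEF2C-OE libraries did not overlap for 12 of the 13 in the upward direction and 1 in the downward direction, where 48.8% of all genes tested did not overlap, 24.4% in each direction. Non-overlap was more common among the 6043 abundant genes, of which 2541 were apart upward and 1852 downward.

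RefSeq start sites (GRCh38.p14) were at hand for 30 of the 35 genes, as 250 bases before and 50 after each start. The core of the C/EBP-ATF response element through which ATF4 acts, TGATGNAA on either strand, is shown for the 8 members that hold it because most are of 1 group: 7 of 10 textbook ATF4-responsive genes held it, 0 of the 6 other cytosolic genes and 1 of 14 mitochondrial genes, against 3.62% of all 35116 such promoters and 2.69% of tested genes outside the members, counting a match in any promoter of a gene as was done for the members. Its form TGATGCAA, found in 0.866% of promoters and 0.708% of those genes, was held by 6 of those 10 genes and no other member. Each stretch is 28 bases long, reads 5′ to 3′ on the gene's own strand and has the match in capitals (TTGCATCA is TGATGCAA on the opposite strand).
AARS1, chr16:70289676-70289703, minus strand: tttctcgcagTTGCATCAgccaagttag
CARS1, chr11:3057408-3057435, minus strand: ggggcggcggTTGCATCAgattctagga
GARS1, chr7:30594835-30594862, plus strand: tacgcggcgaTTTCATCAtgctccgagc
IARS1, chr9:92293693-92293720, minus strand: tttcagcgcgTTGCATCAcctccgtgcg
MARS1, chr12:57488054-57488081, plus strand: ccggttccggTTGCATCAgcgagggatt
NARS1, chr18:57621805-57621832, minus strand: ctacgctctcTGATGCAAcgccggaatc
TARS1, chr5:33440957-33440984, plus strand: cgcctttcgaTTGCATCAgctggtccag
YARS2, chr12:32756077-32756104, minus strand: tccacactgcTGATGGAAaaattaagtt
Counting the first transcribed base as 1, the match began at -187 in AARS1, -33 in GARS1, -13 in IARS1, -4 in MARS1, -2 in CARS1, 3 in TARS1 and 15 in NARS1, and at -197 in YARS2. All 7 of the cytosolic and dual genes with a match were among the 11 that rose. EPRS1, SARS1 and WARS1 rose without these letters in the window. Windows for YARS1, VARS1, LARS1, AARS2 and VARS2 were not used here, so each of the 10 ATF4-responsive genes with a window is one that rose. The E-box CACGTG was present in 4 of the 30 (IARS1, CARS2, EARS2 and MARS2), or 13.3%, near the 12.0% of tested genes outside the members that hold it (7.26% of promoters). The MEF2 site, in 2.10% of those genes and 2.99% of promoters, was present in 0 of the 30. A match describes letters and does not show binding. Since ATF4 acts through this response element, its presence in genes listed as ATF4 targets is not an independent finding.

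WARS1, the tryptophan enzyme, had the largest fold change of the members (chromosome 14, 100333788 to 100376805, minus strand, GRCh38). It had 246, 234 and 236 CPM in the control libraries and 376, 364 and 372 CPM in the MEF2C-OE libraries, so that every MEF2C-OE library stood above every control library (log2 fold change 0.63, SE 0.0238, edgeR adjusted p = 2.6e-24). That is 1.55-fold. IARS1 (chromosome 9, 92210207 to 92293756, minus strand) was the most abundant member and had 798, 773 and 764 CPM in the control libraries and 1089, 1084 and 1075 CPM in the MEF2C-OE libraries. All 3 MEF2C-OE libraries lay above the controls (log2 fold change 0.48, SE 0.0206, edgeR adjusted p = 2.9e-22). TARS1, which charges threonine (chromosome 5, 33440696 to 33469539, plus strand), had 172, 171 and 170.0 CPM in the control libraries and 225, 229.6 and 231 CPM in the MEF2C-OE libraries, again without overlap (log2 fold change 0.42, SE 0.0244, edgeR adjusted p = 4.8e-18).

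The remaining rises ranged from 0.10 to 0.40 on the log2 scale. GARS1, the glycine enzyme of both cytosol and mitochondria (chromosome 7, 30594681 to 30634033, plus strand), had 239, 239 and 232 CPM in the control libraries and 313, 312 and 309 CPM in the MEF2C-OE libraries. Both groups were tight and did not overlap (log2 fold change 0.40, SE 0.0232, edgeR adjusted p = 5.0e-18). CARS1 rose by 0.39, from 84.7 ± 0.897 to 111 ± 1.22 CPM (SD, n = 3). YARS1, the tyrosine enzyme, rose by 0.38, from 175 ± 5.18 to 227 ± 12.3 CPM, and AARS1 by 0.35, from 379.9 ± 4.03 to 483 ± 1.01 CPM. MARS1, the methionine enzyme, rose by 0.31, from 217 ± 3.93 to 269 ± 1.36 CPM. NARS1 rose by 0.17, EPRS1, a single protein that charges both glutamate and proline, by 0.15, and the serine enzyme SARS1 by 0.10 (adjusted p = 0.00265). With the trend on GC content and transcript length removed, EPRS1 had 0.08 (adjusted p = 0.0138) and SARS1 0.16.

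VARS1 and LARS1 are the 2 genes of this group that were not called higher. VARS1, the valine enzyme (chromosome 6, 31777518 to 31795953, minus strand), had 129, 132 and 129 CPM in the control libraries and 97.3, 97.3 and 99.6 CPM in the MEF2C-OE libraries. All 3 MEF2C-OE libraries were below the controls (log2 fold change -0.40, SE 0.0291, edgeR adjusted p = 2.8e-15), and the value was -0.25 with the GC and length trend removed. VARS1 has the highest GC content of the 35 transcripts, 62.6%, and over the 11948 genes above a log2 CPM of 1 the log2 fold change fell with GC content (Spearman correlation -0.37, across genes, which are not independent replicates). LARS1, the leucine enzyme, had 281, 275 and 279 CPM in the control libraries and 298, 282 and 289 CPM in the MEF2C-OE libraries. These groups did not overlap but the difference was small (log2 fold change 0.06, SE 0.0239, edgeR adjusted p = 0.0513). LARS1 was called higher in 5 of 16 alternative settings, among them without MEF2C-OE replicate 2 (0.08, adjusted p = 0.00693), and had -0.02 once the GC and length trend was removed (adjusted p = 0.42).

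Of the other 6 cytosolic genes, the glutamine enzyme QARS1 had the largest fall. QARS1 (chromosome 3, 49095932 to 49105135, minus strand) had 210.2, 207 and 203 CPM in the control libraries and 149, 147 and 152 CPM in the MEF2C-OE libraries. The MEF2C-OE libraries lay far below the controls (log2 fold change -0.47, SE 0.0253, edgeR adjusted p = 3.5e-19). RARS1, for arginine (chromosome 5, 168486445 to 168519299, plus strand), went from 41.6 ± 1.53 to 32.3 ± 0.770 CPM (SD, n = 3) and fell by 0.36, and HARS1, for histidine, fell by 0.25. The phenylalanine enzyme is built from the products of FARSA and FARSB. FARSA had 69.6, 73.6 and 68.1 CPM in the control libraries and 58.9, 58.7 and 57.3 CPM in the MEF2C-OE libraries, with no overlap (log2 fold change -0.27, SE 0.0378, edgeR adjusted p = 9.8e-08). With the GC and length trend removed it had -0.09 and lost its call (adjusted p = 0.0605). FARSB had 72.03, 67.5 and 70.6 CPM in the control libraries and 73.8, 71.7 and 69.2 CPM in the MEF2C-OE libraries, and the groups overlapped (log2 fold change 0.03, SE 0.0366, edgeR adjusted p = 0.55). It had -0.02 with that trend removed (adjusted p = 0.75), and the difference between FARSA and FARSB was not tested. KARS1, the lysine enzyme of both compartments, had 151, 144 and 144 CPM in the control libraries and 147, 137 and 148 CPM in the MEF2C-OE libraries. Its groups overlapped too (log2 fold change -0.02, SE 0.0292, edgeR adjusted p = 0.57).

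**Figure D2:**
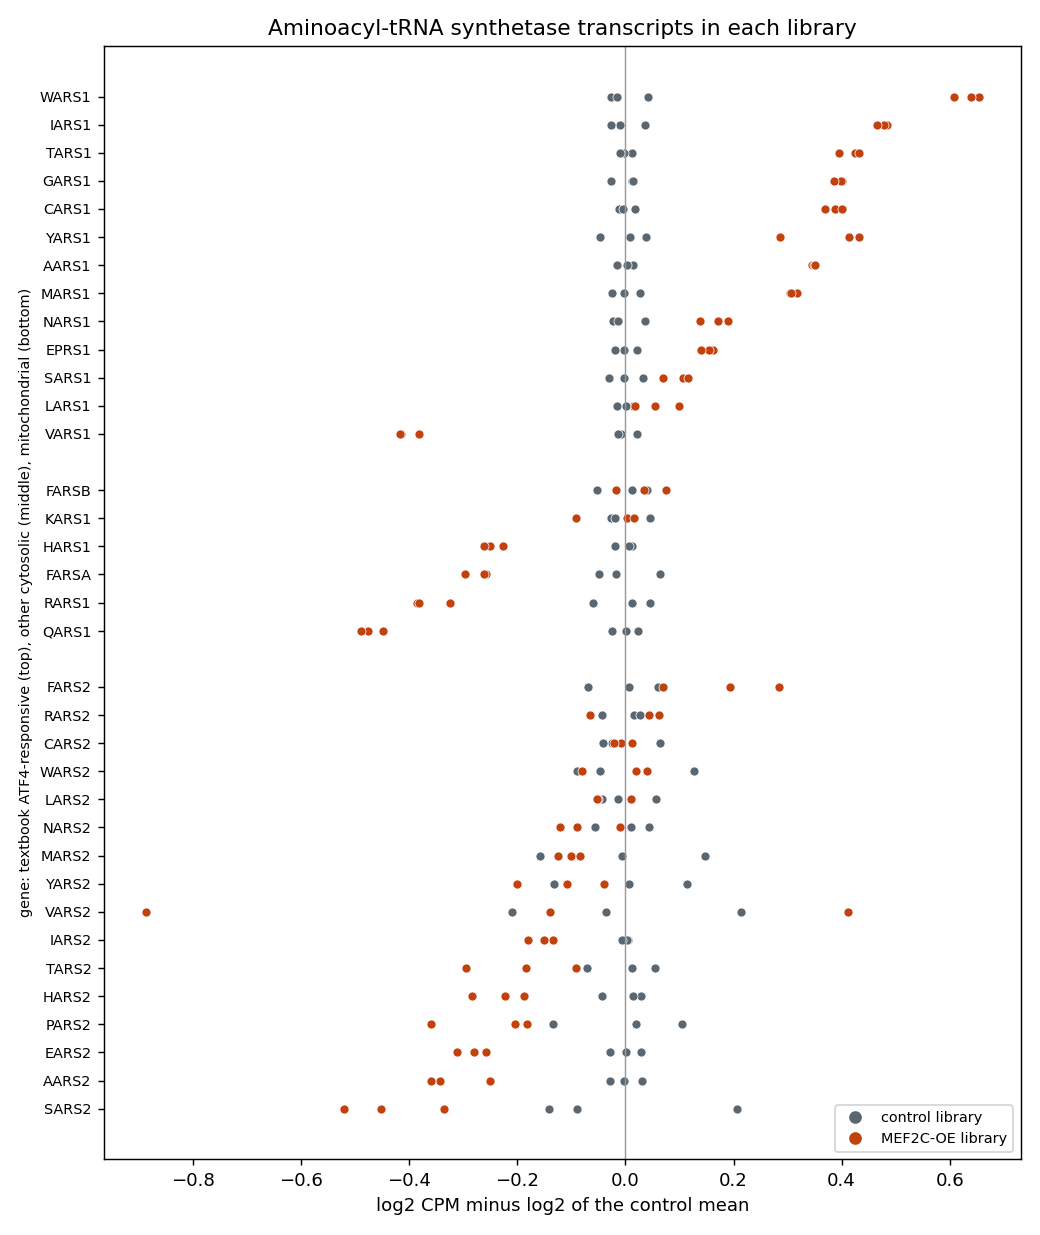
Each library's log2 CPM minus the log2 of the control mean for the 35 genes, with control libraries in grey and MEF2C-OE libraries in orange, in 3 blocks: textbook ATF4-responsive, other cytosolic and dual, and mitochondrial. In the upper block 12 of 13 genes have all MEF2C-OE points to the right of the control points, and in the lowest block 7 of 16 have them all to the left. Of all genes tested 24.4% were apart in each direction. Of the 6043 abundant genes 2541 were apart upward and 1852 downward.

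For the multisynthetase complex the counts were near those of all genes of like abundance. Of the complex's 7 synthetase genes analysed here 3 rose (IARS1, MARS1 and EPRS1), 2 fell (QARS1 and RARS1) and 2 did not pass (LARS1 and KARS1), with a median of 0.06, shares close to the 39.7% higher and 28.6% lower among genes of at least the lowest cytosolic level. Outside the complex 8 of 12 cytosolic and dual genes rose, 3 fell and 1 did not pass, with a median of 0.26. Both enzyme classes were divided as well, with 5 of 9 class I genes higher and 3 lower, and 5 of 9 class II genes higher and 2 lower, leaving aside EPRS1, which joins a class I and a class II enzyme.

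The mitochondrial synthetases fell or did not pass the test. Of the 7 that fell, the alanine enzyme AARS2 (chromosome 6, 44299654 to 44313326, minus strand) had 40.8, 39.1 and 39.8 CPM in the control libraries and 33.5, 31.5 and 31.1 CPM in the MEF2C-OE libraries. No MEF2C-OE library reached the lowest control (log2 fold change -0.32, SE 0.0492, edgeR adjusted p = 8.8e-07), and the value was -0.17 once the GC and length trend was removed (adjusted p = 0.00378). EARS2, the glutamate enzyme (chromosome 16, 23522014 to 23557731, minus strand), had 42.6, 43.4 and 41.7 CPM in the control libraries and 35.05, 34.3 and 35.6 CPM in the MEF2C-OE libraries, again apart (log2 fold change -0.28, SE 0.0466, edgeR adjusted p = 2.7e-06). HARS2, for histidine, had 32.6, 32.3 and 31.03 CPM in the control libraries and 28.1, 26.3 and 27.4 CPM in the MEF2C-OE libraries. Every MEF2C-OE library lay below every control library (log2 fold change -0.23, SE 0.0534, edgeR adjusted p = 4.5e-04). IARS2 fell by 0.15 (adjusted p = 3.1e-04), from 74.8 ± 0.322 to 67.2 ± 1.07 CPM (SD, n = 3). These 4 calls held in each of the 16 alternative settings. None of the settings changed how reads in the shared exons of EARS2 and HARS2 were counted.

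The other 3 falls were less secure. SARS2, the serine enzyme, had 3.93, 5.00 and 4.07 CPM in the control libraries and 3.44, 3.02 and 3.17 CPM in the MEF2C-OE libraries. Its groups did not overlap at this low level (log2 fold change -0.43, SE 0.14, edgeR adjusted p = 0.0112). It lost its call without control replicate 2 (-0.32, adjusted p = 0.12) and under removal of the GC and length trend (-0.24). PARS2, the proline enzyme, had 9.40, 7.96 and 8.85 CPM in the control libraries and 7.58, 6.81 and 7.70 CPM in the MEF2C-OE libraries, apart by a narrow margin (log2 fold change -0.25, SE 0.0975, edgeR adjusted p = 0.0404). It lost its call in 10 of the 16 settings, which include dropping control replicate 1 (-0.19), control replicate 3 (-0.24), MEF2C-OE replicate 1 (-0.26) or MEF2C-OE replicate 2 (-0.19). TARS2, the threonine enzyme, had 28.2, 25.8 and 27.4 CPM in the control libraries and 22.1, 23.9 and 25.5 CPM in the MEF2C-OE libraries, with the closest libraries 25.8 and 25.5 CPM (log2 fold change -0.19, SE 0.0599, edgeR adjusted p = 0.0101). It lost its call without control replicate 1 (-0.16), without MEF2C-OE replicate 1 (-0.13) and under removal of the GC and length trend (-0.09).

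Among the 9 mitochondrial genes that did not pass, FARS2, the phenylalanine enzyme, was the only one with all MEF2C-OE libraries above the controls. FARS2 had 9.22, 8.43 and 8.89 CPM in the control libraries and 9.29, 10.1 and 10.8 CPM in the MEF2C-OE libraries (log2 fold change 0.19, SE 0.0901, edgeR adjusted p = 0.0991); removing the GC and length trend gave 0.22 (adjusted p = 0.0451). MARS2, the methionine enzyme, had 24.4, 30.1 and 27.03 CPM in the control libraries and 25.3, 25.6 and 24.9 CPM in the MEF2C-OE libraries. Control replicate 1 lay below every MEF2C-OE library, unlike the other controls (log2 fold change -0.10, SE 0.0619, edgeR adjusted p = 0.20), and without it MARS2 was called lower (-0.18, adjusted p = 0.0265). YARS2, for tyrosine, and NARS2, for asparagine, had log2 fold changes of -0.11 (adjusted p = 0.20) and -0.07 (adjusted p = 0.24). LARS2, for leucine, had -0.03 (adjusted p = 0.60). RARS2, for arginine, had 33.8, 34.1 and 32.5 CPM in the control libraries and 31.97, 34.95 and 34.5 CPM in the MEF2C-OE libraries, with a log2 fold change of 0.013 (adjusted p = 0.87). CARS2, for cysteine, had 45.9, 45.4 and 48.8 CPM in the control libraries and 46.4, 47.1 and 46.01 CPM in the MEF2C-OE libraries, with -0.006 (adjusted p = 0.93). WARS2, for tryptophan, had 16.8, 16.3 and 18.9 CPM in the control libraries and 17.8, 17.5 and 16.4 CPM in the MEF2C-OE libraries, with -0.006 (adjusted p = 0.96). In RARS2, CARS2 and WARS2 the libraries of the groups overlapped. VARS2 had 51 to 111 reads a library and 1.48, 1.99 and 1.67 CPM in the control libraries and 0.927, 2.28 and 1.56 CPM in the MEF2C-OE libraries. The groups overlapped widely (log2 fold change -0.12, SE 0.24, edgeR adjusted p = 0.74).

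The 2 compartments were next compared amino acid by amino acid, as the log2 ratio of the cytosolic to the mitochondrial gene within each library, a measure that library scaling cannot move. For 11 of 17 pairs the ratio was higher in every MEF2C-OE library than in any control library, for 2 it was lower in every one, and 4 overlapped. The 17 pairs are not separate, since EPRS1 stands against both EARS2 and PARS2 and FARS2 against both FARSA and FARSB, and no background share was computed for ratios. With 3 libraries against 3, the two-sided exact permutation test cannot go below p = 0.10, and its smallest value adjusted over the 17 pairs was 0.13. The AARS1 to AARS2 ratio went from 3.25 ± 0.0153 in the control libraries to 3.92 ± 0.0617 in the MEF2C-OE libraries (SD, n = 3; difference 0.67, exact p = 0.10). The pairs of WARS1, IARS1 and TARS1 followed with differences of 0.64, 0.63 and 0.61. In the AARS, IARS and TARS pairs the cytosolic gene rose while the mitochondrial gene fell, and in the WARS pair WARS2 had -0.006. FARSA against FARS2 and RARS1 against RARS2 went the opposite way, with differences of -0.45 and -0.38. HARS1 and HARS2 lie head to head on opposite strands of chromosome 5, and their ratio went from 1.77 ± 0.0438 in the control libraries to 1.76 ± 0.0409 in the MEF2C-OE libraries (difference -0.02, exact p = 0.50). These genes fell by 0.25 and 0.23 in turn.

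**Figure D3:**
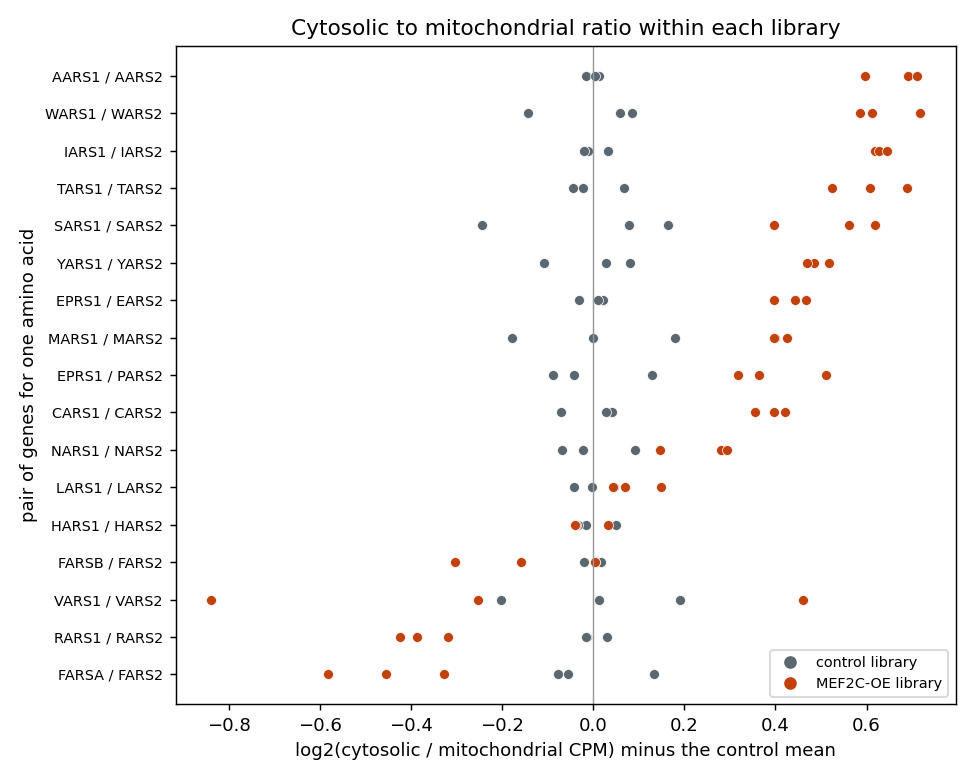
Log2 ratio of cytosolic to mitochondrial CPM in each library minus its control mean, for 17 pairs of genes that charge the same amino acid, with control libraries in grey and MEF2C-OE libraries in orange. The MEF2C-OE points lie to the right of all control points in 11 pairs, and AARS1 with AARS2 shows the largest difference, 0.67.

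Partners of the synthetases were then examined in lists of pathway genes. In the multisynthetase complex, the scaffold gene EEF1E1 (AIMP3) went up from 21.8 ± 1.21 to 34.6 ± 0.369 CPM (log2 fold change 0.66, SE 0.0556, edgeR adjusted p = 2.8e-13), and AIMP2 by 0.10 (adjusted p = 0.0454), while AIMP1 had 0.04 (adjusted p = 0.31). The call of AIMP2 was lost without any 1 library other than control replicate 3 (0.09 to 0.12). Of 4 genes for mitochondrial glutaminyl-tRNA and formylmethionyl-tRNA, GATC rose by 0.12 and 3 did not pass, and GATC lost its call without MEF2C-OE replicate 3 (0.10). Of 6 tested elongation factor genes, for proteins that carry charged tRNA or recharge the carrier with GTP, 3 fell, EEF1A1 by 0.42, EEF1B2 by 0.38 and EEF1D by 0.36 (median -0.28), and 3 did not pass. Over all genes tested 20.8% rose and 20.2% fell, and among the abundant ones 39.7% and 28.6%. Of 2 tested genes of tRNA proofreading, AARSD1, which clears mischarged tRNA of alanine, fell by 0.62. The other, DTD2, did not pass (-0.04, adjusted p = 0.70).

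Among genes that make and mature tRNA the counts are read against all genes tested, of which 20.8% rose and 20.2% fell (39.7% and 28.6% among the abundant ones). Of 27 genes of tRNA maturation and export 3 rose, 8 fell and 16 did not pass (median -0.07). The share that rose was below both backgrounds. The share that fell was above that of all genes tested and near that of abundant genes. Most genes of this list are less abundant than that set, with a median of 23.7 CPM in the control libraries. The lowest abundant gene had 26.2 CPM there. XPOT, the nuclear export receptor of tRNA and a textbook ATF4 target, had 501, 496 and 504 CPM in the control libraries and 785, 810.5 and 784 CPM in the MEF2C-OE libraries. No control library came near the MEF2C-OE values (log2 fold change 0.66, SE 0.0211, edgeR adjusted p = 1.1e-26). TSEN34, of the tRNA splicing endonuclease, and ELAC2, which trims tRNA 3′ ends, fell by 0.42 and 0.35. Of 46 tRNA modification genes 9 rose, 23 fell and 14 did not pass (median -0.12), and 12 fell with the GC and length trend removed. QTRT1, which inserts queuine, fell by 0.65, CTU1, of the enzyme that thiolates the wobble uridine, by 0.64 and ADAT3, of the wobble deaminase, by 0.43. ADAT3 lost its call without control replicate 1 (-0.35), MEF2C-OE replicate 1 (-0.33) or MEF2C-OE replicate 3 (-0.39). Of 24 genes of RNA polymerase III and its factors 5 rose, 7 fell and 12 did not pass. The share that rose was near that of all genes tested and below that of abundant genes. The share that fell was near that of abundant genes and above that of all genes tested. POLR3C rose by 0.40, and GTF3C6 and POLR1C fell by 0.44 and 0.38.

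The amino acid response genes outside the synthetases were also mostly higher. Of 20 tested ATF4 target enzymes and transporters 16 rose, 2 fell and 2 did not pass, with a median log2 fold change of 0.36. Over all genes tested 20.8% rose and 20.2% fell, and among the abundant ones 39.7% and 28.6%. SLC7A11, the cystine transporter, had 97.03, 94.8 and 92.8 CPM in the control libraries and 206, 208 and 209 CPM in the MEF2C-OE libraries. The groups were far apart, at 2.19-fold (log2 fold change 1.13, SE 0.0270, edgeR adjusted p = 1.9e-30). The glycine transporter gene SLC6A9 rose by 0.99 on the log2 scale, from 19.4 ± 1.11 to 38.4 ± 0.806 CPM, and CBS, of cysteine synthesis, by 0.59. ASNS, which makes asparagine and is a standard ATF4 target, had 2.00, 1.88 and 2.18 CPM in the control libraries and 1.91, 1.58 and 2.22 CPM in the MEF2C-OE libraries, and did not pass (log2 fold change -0.08, SE 0.19, edgeR adjusted p = 0.78). PYCR1 and ALDH18A1, the enzymes of proline synthesis in the list, fell by 0.37 and 0.22. They are the 2 lower genes of the list and were named after their values were seen.

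The list of GCN2 and ATF4 regulators also holds response genes such as CHAC1. Of its 13 tested genes 10 rose, 0 fell and 3 did not pass, with a median of 0.26. Those 3 were GCN1, EIF2S1 and DDIT3, with log2 fold changes of -0.04, 0.02 and 0.05, and EIF2AK4, the gene of GCN2, had 0.13. The share that rose was 20.8% over all genes tested and 39.7% among the abundant ones. CHAC1, which degrades glutathione, rose by 0.91, the pseudokinase gene TRIB3 by 0.69 and CEBPB by 0.63. ATF4 is regulated mainly in translation, and its transcript differed little, with 491, 502 and 489 CPM in the control libraries and 508, 504 and 533 CPM in the MEF2C-OE libraries (log2 fold change 0.06, SE 0.0227, edgeR adjusted p = 0.0270). Its call was lost without control replicate 1 (0.06), control replicate 3 (0.05) or MEF2C-OE replicate 3 (0.04). ATF4 protein and the phosphorylation of eIF2 alpha were not measured. T-lineage markers also moved between the groups, as 10 of 13 fell, 1 rose and 2 did not pass. The share that fell was 20.2% over all genes tested and 28.6% among the abundant ones. CD2, CD247 and CD3D fell by 0.68, 0.47 and 0.44. Of the marker genes of other lineages CEBPA rose by 0.52, ITGA2B fell by 1.63, and CD79B fell by 0.56 (adjusted p = 0.0463) with the call lost without any 1 library other than control replicate 1. The part of these marker changes in the synthetase results was not tested.

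**Figure D4:**
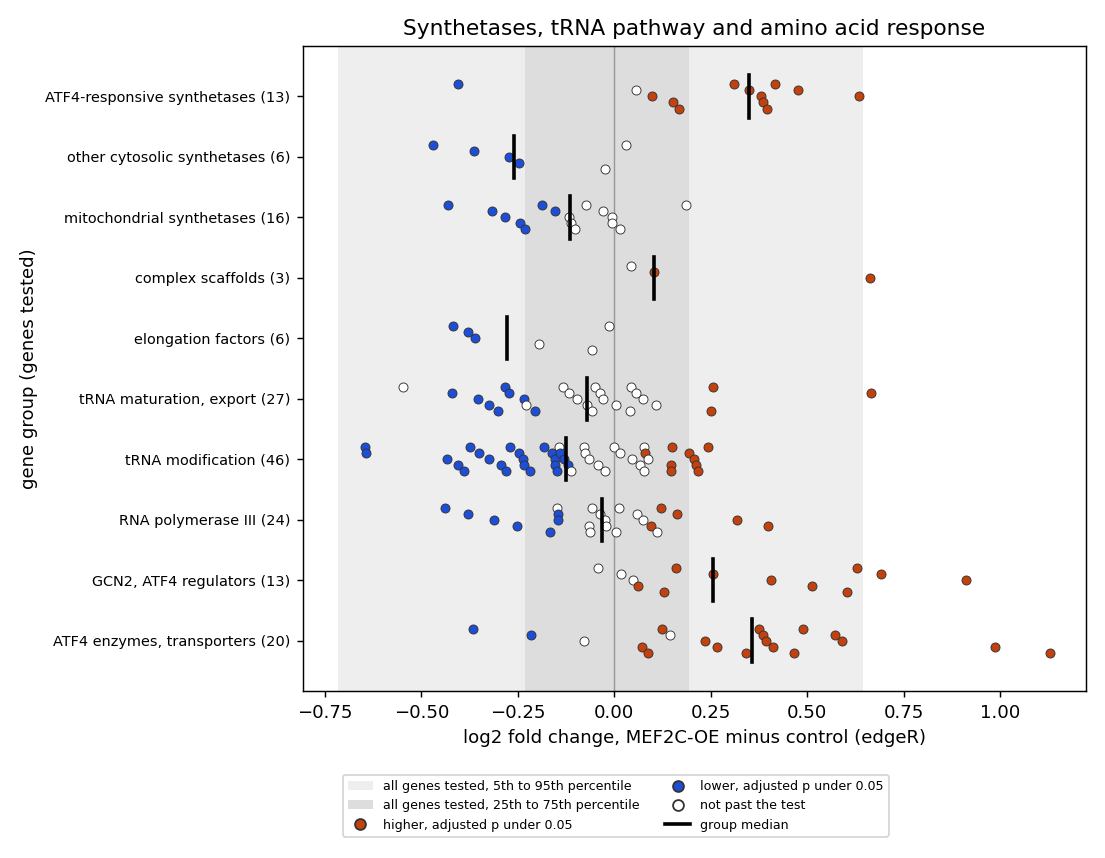
Log2 fold change (MEF2C-OE minus control, edgeR) of each gene tested in 10 groups, with filled points for genes called higher (orange) or lower (blue), open points for genes not past the test, a bar at each group's median, and shading for the spread of all genes tested. The medians of ATF4-responsive synthetases (0.35), GCN2 and ATF4 regulators (0.26) and ATF4 enzymes and transporters (0.36) lie to the right of 0. Those of the other cytosolic synthetases (-0.26) and mitochondrial synthetases (-0.12) lie to the left. The list of GCN2 and ATF4 regulators also holds response genes such as CHAC1.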

How the data were processed

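Total RNA of 3 control and 3 MEF2C-OE libraries was extracted with TRIzol and prepared with TruSeq, per the labels' protocols. The deposited files hold raw read counts per Ensembl gene, which the authors made with Trim Galore, STAR and HTSeq on hg38, per the submitters' processing notes. The sources used here give no version, annotation or strand setting. Rows that name no gene were left out of library sizes: 20.9 to 21.8% of reads fell in no feature, 3.31 to 3.46% were ambiguous and 4.03 to 4.68% were not unique.

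Counts were fitted with edgeR 4.0.16 (R 4.3.3; TMM scaling, filterByExpr, robust quasi-likelihood test, Benjamini-Hochberg adjustment over 19086 genes), and the SE is the fold change divided by the root of F. The biological coefficient of variation was 3.67%, which sets the precision at these depths. CPM is TMM-scaled, and RPKM divides it by the union of GENCODE 29 exons (GRCh38), which also gave coordinates, exon overlaps, GC content and length. Alternatives were other scalings and filters, DESeq2 1.42.0, limma-voom (limma 3.58.1), a replicate block, removal of a GC and length trend (splines with 5 degrees of freedom per library) and each library left out. Calls use an adjusted p under 0.05. The code was tested on simulated data. Ratios of paired genes were compared by exact permutation over libraries.

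The members and lists were chosen with earlier results of these data known. Values in every library are given for the 6 cytosolic or dual and the 6 mitochondrial genes of largest fold change among those called, for GARS1 and KARS1, and for members whose call or direction changed under an alternative. From each list the 3 called genes of largest fold change with at least 1 CPM are named, besides ATF4, ASNS, AIMP1, AIMP2, EEF1E1 and MEF2C. PYCR1, ALDH18A1, GCN1, EIF2S1, DDIT3, EIF2AK4 and DTD2 were named after their values were seen.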

Additional observations from a re-analysis of the deposited data

How the results depend on the processing

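Over 16 alternative settings, 11 to 12 cytosolic and dual genes were called higher and 4 to 5 lower, and the textbook ATF4-responsive genes called higher numbered 11 to 12. Of all genes tested, 9.77% were called higher and 9.54% lower with no count filter, the lowest shares. The highest were 26.9% and 27.1%, with a filter of 1 CPM in 3 libraries. Mitochondrial genes called lower numbered 5 to 7, apart from 4 under removal of the GC and length trend, with or without the replicate block; 1 was then called higher without the block. The tRNA modification genes called lower went from 23 to 12 in both of these fits. Of all genes tested 18.7% were called lower without the block and 18.5% with it. The median log2 fold change of the cytosolic and dual genes was 0.152, 0.171 with library totals and 0.137 with the upper quartile. That of the mitochondrial genes was -0.115, with -0.096 for library totals, -0.13 for the upper quartile, -0.131 for limma-voom, -0.089 under removal of the GC and length trend, and -0.167 to -0.077 with 1 library left out. The cause of these shifts was not tested. No called value changed direction.

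The replicate block gave 11 cytosolic and dual genes higher, 5 lower and 7 mitochondrial genes lower, as without it, with a mitochondrial median of -0.133, and -0.088 together with removal of the GC and length trend. Deviations of libraries with the same replicate number correlated at 0.023, -0.0022 and -0.033, so the numbers were not taken as pairing. Depth limits VARS2 and SARS2 most, the members with the fewest reads.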

Other observations

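The TGATGNAA letters were also counted in the promoters of tested genes outside the synthetases. Of 300 such genes that held them 37% were called higher and 15.3% lower, with a median log2 fold change of 0.0743. Among the 10853 without them 26.1% were called higher and 25.4% lower, with a median of -0.0048. For the 79 genes with TGATGCAA the shares were 39.2% and 17.7%. For the 1343 genes with the E-box CACGTG they were 25% and 28.4%, and for the 234 with the MEF2 site 30.8% and 19.7%. These shares are descriptions and no test of the difference was made.

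Among the mitochondrial synthetases 5 of 7 class II genes fell (AARS2, HARS2, PARS2, SARS2 and TARS2) and 2 of 9 class I genes (EARS2 and IARS2). Of all genes tested 20.2% fell. With the GC and length trend removed PARS2, SARS2 and TARS2 lost their calls. That left AARS2 and HARS2 in class II and EARS2 and IARS2 in class I, where 18.7% of all genes tested fell. The difference between the classes was not tested.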
